A study of Mus musculus with 6 samples.

Results

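The genes described here encode the kinases that drive the meiotic divisions and the proteins of the spindle checkpoint. They were *Aurka*, *Aurkc*, *Plk1*, *Nek2*, *Bub1*, *Bub1b*, *Mad2l1*, *Incenp*, *Cdca8* and *Cdc20*, 10 genes chosen by symbol, and a gene was taken up if at least 1 contig (an annotated transcript to which reads were aligned) carried its symbol. This found 13 contigs of 9 genes, with 1863 reads, among 11517 annotated contigs of 7210 genes, and *Mad2l1* is not analysed here. The reads came from direct RNA sequencing, in which native polyadenylated molecules pass through a nanopore, and a tail length is estimated for every read. Germ cells were sorted by DNA content, red fluorescence and light scatter from the testes of adult, untreated C57BL/6J/B6 mice, into populations enriched for pachytene/diplotene (P/D) spermatocytes or for round spermatids (RS). Neither population was pure, and by the authors' microscopy the P/D population was less pure than the RS population. There were 3 samples of each, every sample held mRNA pooled from 3 mice, and no allele or agent differed between the groups. The 3 P/D samples formed 1 barcoded library and the 3 RS samples another, and the effects of cell type and of library therefore cannot be told apart.

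The samples held 244004 to 305950 reads in P/D spermatocytes and 316653 to 474688 reads in RS. Of 9 pachytene and diplotene markers tested, 6 were lower in RS and 2 higher (*Spag6*, log2 fold change 2.95, and *Tbpl1*, 0.23), and their summed level was 0.254 to 0.259% of reads in P/D samples and 0.170 to 0.183% in RS. *Sycp3*, of the synaptonemal complex, was among those lower, with 83, 110 and 118 reads in P/D samples and 13, 27 and 14 in RS. Of 9 round spermatid markers tested, 8 were higher in RS and 0 lower, and they summed to 0.0905 to 0.0961% and 0.304 to 0.345%. The summed level of 10 elongating spermatid markers was 0.195 to 0.263% of reads in P/D samples and 2.46 to 2.96% in RS. A list of 5 secondary spermatocyte and division markers (*Ccnb1*, *Cdk1*, *Pttg1*, *Ccna1* and *Cks2*), of which 1 was higher and 3 lower in RS, summed to 0.136 to 0.148% in P/D samples and 0.0538 to 0.0669% in RS, and its part in the results was not tested. Spermatogonial, Sertoli and Leydig cell markers had 0 to 7 reads in any sample, and none of 6 macrophage and endothelial markers had a contig.

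Spermatocytes transcribe and store the mRNAs for a pair of divisions that follow one another without an intervening S phase. At the divisions, Aurora, Polo-like and NEK kinases mature the centrosomes and build the spindle, the chromosomal passenger complex corrects wrong attachments of kinetochores to microtubules, and the spindle checkpoint holds the anaphase-promoting complex inactive until all chromosomes are attached. RS are the haploid cells that come out of these divisions and divide no more. A poly(A) tail protects an mRNA and favours its translation, and in germ cells tails can be lengthened in the cytoplasm through U-rich elements close to the polyadenylation signal.

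In RS, most genes tested had longer tails than in P/D cells, and none of the division genes was called so. Mean tail lengths in nt were compared per gene with limma over 5370 genes, and a gene was called at a Benjamini-Hochberg adjusted p below 0.05. Of 9 division genes tested, 0 were called longer in RS, against 54.9% of all genes tested, and 2 were called shorter, *Cdc20* and *Incenp*, against 2.14% of all genes. At an unadjusted p below 0.05 in limma, *Aurka* was longer as well and *Bub1* shorter, and the unadjusted two-tailed test that the methods name called 0 longer. The median difference of the 9 genes, RS minus P/D, was -10.3 nt, and that of all genes tested was 35.0 nt. All 9 genes passed the read minimum, 7 of them in both cell types and *Cdca8* and *Bub1b* in P/D spermatocytes only. In RS, the mean tails of 8 of the 9 genes lay between the percentiles 0.391 (*Incenp*) and 11.4 (*Cdca8*) of all genes tested, and *Bub1b* lay at 24.8. In P/D spermatocytes the same genes lay between the percentiles 7.77 for *Aurka* and 71.8 for *Cdc20*.

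**Figure D1:**
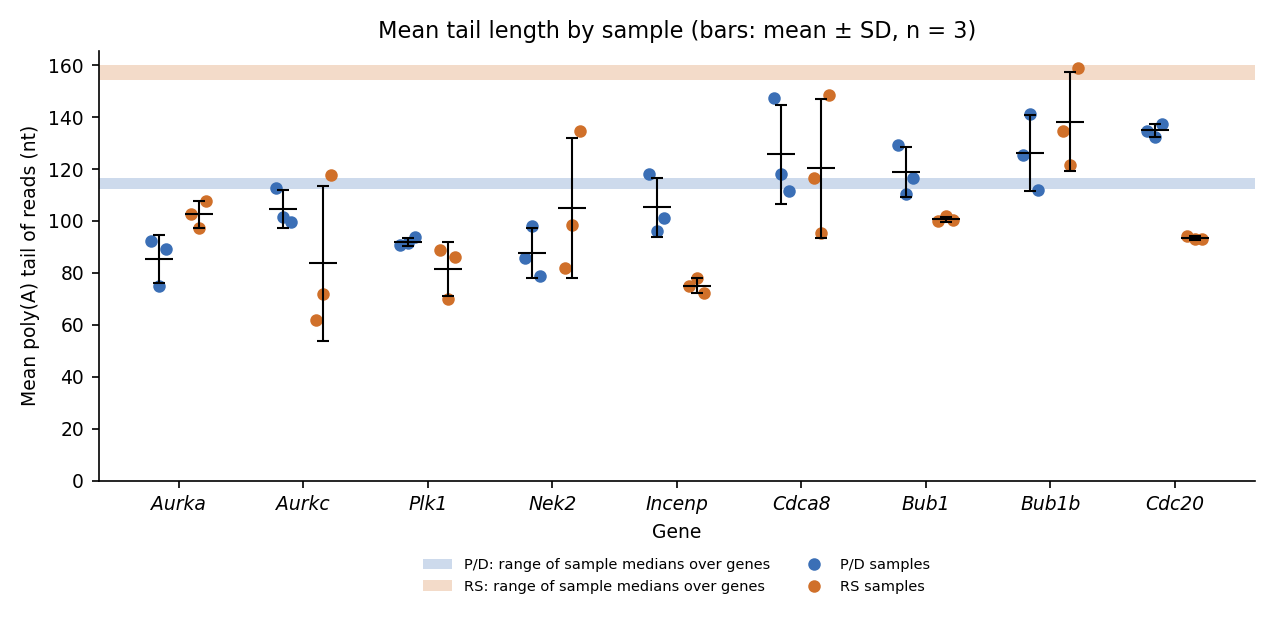
Mean poly(A) tail of the reads of each gene (nt) in each of the 3 P/D samples (blue) and 3 RS samples (orange), with mean ± SD in black; shaded bands give the range over the samples of each cell type of the median over genes. All RS points except 1 of *Bub1b* stayed below the orange band, and the *Cdc20* samples of RS sat between 93.1 and 94.4 nt, below all 3 P/D samples.

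The annotated ends of these transcripts are shown because tails are added there. In the GENCODE vM21 transcripts (GRCm38), the hexamer AATAAA or ATTAAA, the polyadenylation signal, was looked for in the last 40 bases of each contig on the transcript strand, and the U-rich elements TTTTAT and TTTTAAT, the DNA letters of a cytoplasmic polyadenylation element, in the last 100. TTTTAAT can overlap AATAAA, and such overlaps were counted. A hexamer was found in 8 of 13 contigs (61.5%), and in 75.6% of the 6901 tested contigs with a sequence. A U-rich element was found in 7 of 13 (53.8%), which are the contigs of *Aurka*, *Aurkc*, *Bub1b* and *Cdc20* and in 14.9% of tested contigs. The contigs of 1 gene are not independent here, since the *Aurkc* contigs end at the same base and those of *Aurka* at either of 2 nearby positions (172356190 and 172356196). Windows of 30 bases around the hexamer follow, with the hexamer in capitals and, where it lay close enough before it, the element TTTTAT in capitals too (overlapping copies run together). *Aurka*, *Nek2* and the main *Incenp* contig had no such hexamer in the last 40 bases.
Cdc20, chr4:118432911-118432940, minus strand: TTTTATTTTATtttttctAATAAAgttcgt
Bub1b, chr2:118641562-118641591, plus strand: gtaTTTTATAATAAAatagtttttgttaca
Aurkc, chr7:7003048-7003077, plus strand: TTTTATgaagtgatgttaATTAAAactgat
Bub1, chr2:127801122-127801151, minus strand: taaaaaaAATAAAgcccatatgatataccc
Cdca8, chr4:124918466-124918495, minus strand: AATAAAtcttagtttgccatggttttaagt
Plk1, chr7:122169844-122169873, plus strand: gctttatatatATTAAAatgtgtacatctc

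Both *Cdc20*, which was called shorter, and *Bub1b*, which was not called, had TTTTAT within a few bases before AATAAA, and the difference between these genes was not tested. The elements are matches of letters, and whether the reads ended at these annotated ends was not tested.

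*Cdc20* encodes the coactivator that the checkpoint restrains and that brings substrates to the anaphase-promoting complex. Its single contig, ENSMUST00000006565, lies on chromosome 4 from 118432901 to 118437352 on the minus strand with 10 exons. Its mean tail was 134.7, 132.5 and 137.5 nt in the P/D samples and 94.4, 93.2 and 93.1 nt in the RS samples, from 54, 69 and 61 reads and from 27, 44 and 24 reads. The groups did not overlap, and the difference was -41.3 ± 4.59 nt (SE, n = 3 per group; limma adjusted p = 0.000562). Among the 1878 genes for which no sample had under 20 reads, 32 of them called shorter, *Cdc20* had the 6th largest decrease. The RS means had an SD of 0.718 nt, while the standard error of each of these means over its own reads was 9.63 to 12.1 nt. The standard error of the difference taken from the reads alone was 8.49 nt. The share of *Cdc20* reads with tails of 30 to 120 nt was 53.7, 49.3 and 44.3% in P/D samples and 74.1, 72.7 and 75.0% in RS, again without overlap (exact permutation p = 0.1, the smallest that 3 against 3 samples allow). Over the pooled reads this was 90 of 184 reads in P/D samples (Wilson 95% interval 41.8 to 56.1%) and 70 of 95 in RS (64 to 81.5%), intervals that cover counting error only.

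*Aurka* encodes the Aurora kinase of centrosomes and spindle poles. Its mean tail was 92.4, 74.8 and 89.1 nt in P/D samples and 102.7, 97.2 and 107.6 nt in RS, and every RS sample lay above every P/D sample. The difference of 17.02 ± 6.69 nt (SE) missed the threshold (limma adjusted p = 0.0724) and passed it with the median tail of the reads in place of the mean (23.4 nt, adjusted p = 0.0142). Reads of *Aurka* fell on 3 contigs with almost the same span on chromosome 2 (172356190 to 172370535 for the longest), so that reads of 1 transcript may be divided among them. The contig with most reads, ENSMUST00000109140 with 332 reads, gave 13.7 ± 6.32 nt (limma adjusted p = 0.113), and ENSMUST00000109139 with 119 reads gave 27.3 ± 9.33 nt (adjusted p = 0.0467). The latter was the 1 contig called longer of 11 contigs tested, against 54.2% of all contigs, while the contigs of *Cdc20* and *Incenp* were called shorter, against 1.69%. It was not called when any sample other than RS replicate 2 was left out. In both cell types most *Aurka* reads had tails of 30 to 120 nt, 72.7% ± 4.75 in P/D samples and 75.4% ± 2.90 in RS (SD, n = 3).

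*Aurkc* encodes the Aurora kinase found mainly in germ cells, where it acts in the chromosomal passenger complex. Its mean tail was 112.8, 101.5 and 99.5 nt in P/D samples and 61.7, 71.8 and 117.6 nt in RS. The third RS sample lay above all P/D samples and the other two below, and the difference of -20.9 nt had a 95% interval of -57.7 to 15.8 nt (limma adjusted p = 0.283). Without RS replicate 3 it was -37.9 nt (adjusted p = 0.0104). These means rest on 9 to 29 reads a sample. *Plk1* encodes the Polo-like kinase needed for centrosome maturation and for entry into and exit from division. The samples gave 90.6, 91.5 and 93.8 nt in P/D samples and 89.0, 69.8 and 86.1 nt in RS. The groups did not overlap, by a narrow margin, and the difference was -10.3 ± 6.61 nt with an interval of -26.5 to 5.86 nt (limma adjusted p = 0.234). *Nek2* encodes the kinase that releases the link between centrosomes. The samples gave 85.8, 98.1 and 79.0 nt in P/D samples and 81.9, 98.3 and 134.8 nt in RS, with 1 RS sample far above the others, and the difference of 17.4 nt had an interval of -17.3 to 52.1 nt (limma adjusted p = 0.342).

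The chromosomal passenger complex was represented by *Incenp*, its scaffold, which binds and activates the Aurora kinase, and by *Cdca8*, which encodes borealin and helps to place the complex on the centromere. The mean tail of *Incenp* was 118.2, 96.3 and 101.1 nt in P/D samples and 74.9, 78.0 and 72.4 nt in RS, without overlap, a difference of -30.1 ± 7.10 nt (SE; limma adjusted p = 0.0119). The first P/D value rests on 4 reads, the others on 15 to 22. The standard error of the difference from the reads alone was 17.9 nt, and the call was lost with means weighted by their reads (-25.6 nt, adjusted p = 0.0502) and with median tails (-17.7 nt, adjusted p = 0.149). Of its 90 reads, 38 fell on a contig annotated as a retained intron, ENSMUST00000238129, whose mean of 1 P/D sample rests on 1 read and which was not tested. The other contig gave -29.4 ± 8.28 nt (limma adjusted p = 0.0239). The mean tail of *Cdca8* was 147.3, 118.1 and 111.5 nt in P/D samples and 116.7, 95.5 and 148.5 nt in RS, so that the groups overlapped (difference -5.42 nt, interval -44.6 to 33.7 nt, limma adjusted p = 0.798). These RS means rest on 8, 17 and 9 reads, with standard errors over their own reads of 15.4 to 30.2 nt.

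*Bub1* encodes the checkpoint kinase that also marks centromeric chromatin for the protectors of cohesin. Mean tails were 129.3, 110.4 and 116.4 nt in P/D samples and 100, 101.8 and 100.3 nt in RS. Every RS sample lay below every P/D sample and the difference was -18.0 ± 6.36 nt, just short of the threshold (limma adjusted p = 0.0517), and was -22.2 nt without P/D replicate 2 (adjusted p = 0.0278). The P/D means rest on 7 to 11 reads, and the standard error from the reads alone was 14.5 nt. *Bub1b* encodes BUBR1, which binds CDC20 in the checkpoint complex. Its mean tail was 125.5, 141.1 and 111.8 nt in P/D samples and 134.6, 121.4 and 158.8 nt in RS, the longest mean of the 9 genes in RS, from 4 to 6 reads a sample. The groups overlapped and the interval of the difference ran from -17.5 to 41.7 nt (limma adjusted p = 0.435).

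Since the whole RS population had longer tails, the same comparison was made after subtracting from each sample the median over its genes, which was 112.1 to 116.6 nt in P/D samples and 154.2 to 160.2 nt in RS. On this relative scale all 9 genes had negative differences, against 59.0% of all genes tested. Of the 9, 7 were called shorter, against 24.0% of all genes tested. None was called longer, against 13.4%. The called genes were *Cdc20* (-84.9 ± 4.91 nt, limma adjusted p = 0.00334), *Incenp* (-73.7 ± 6.71 nt, adjusted p = 0.00334), *Aurkc*, *Bub1*, *Plk1*, *Cdca8* and *Aurka* (-26.6 ± 5.81 nt, adjusted p = 0.0172). *Bub1b* (-31.5 nt, adjusted p = 0.0710) and *Nek2* (-26.2 nt, adjusted p = 0.172) were not called. The median over the 9 genes was -53.9 nt, beside -8.62 nt over all genes tested. Among contigs, 7 of 11 were called shorter, against 20.3%, and 0 longer, against 8.87%. *Aurka* was not called when samples were centred on the mean (-16.9 nt, adjusted p = 0.0622), nor was *Cdca8* (-39.3 nt, adjusted p = 0.0732). On the log2 scale *Aurka* was not called either (-0.20, adjusted p = 0.110). With means weighted by their reads *Nek2* was called shorter (-29.4 nt, adjusted p = 0.0102). Without RS replicate 2, 4 of the 7 were called (*Cdc20*, *Incenp*, *Bub1* and *Plk1*). *Cdca8* was also not called without P/D replicate 1 (-39.3 nt), P/D replicate 2 (-51.9 nt) or RS replicate 1 (-47.05 nt), nor *Aurka* without RS replicate 1 (-26.5 nt). Without RS replicate 3 all 9 genes were called shorter, *Bub1b* with -40.4 nt and *Nek2* with -39.8 nt.

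Tail classes were then compared on single reads. Of all other annotated reads, 29.6% ± 0.944 had tails of 120 to 210 nt in P/D samples and 67.5% ± 0.992 in RS (SD, n = 3). Of the reads of the 9 genes, the share in this class was 23.0, 26.9 and 26.3% in P/D samples and 19.2, 18.0 and 23.2% in RS. These groups overlapped, since the third RS sample lay above the first P/D sample (exact permutation p = 0.2). Over the pooled reads the Wilson 95% intervals were 23 to 28.5% of 966 reads and 17.4 to 22.6% of 897 reads. These intervals cover counting error only, not the spread between samples or between genes. With equal weight of each gene the difference, RS minus P/D, was -4.17 percentage points. The share with tails of 30 to 120 nt was 60.5, 60.8 and 61.8% in P/D samples and 77.5, 75.1 and 70.3% in RS, where all other reads had 61.2% ± 1.56 and 22.3% ± 1.64. No member was past the exact permutation test on its share in the longer class, which with 3 against 3 samples cannot go below 0.1. The mean share in that class was lower in RS than in P/D samples for *Cdc20* (32.8% ± 6.13 and 17.03% ± 1.34), *Bub1* (40.3% ± 15.3 and 24.7% ± 3.35) and *Incenp* (21.7% ± 7.27 and 7.40% ± 3.84). It was also lower for *Aurkc* (25.8 and 7.14%) and *Plk1* (21.5 and 15.97%). It was higher in RS for *Aurka* (16.6 and 21.1%), *Nek2* (20.8 and 24.1%), *Bub1b* (30.35 and 54.4%) and *Cdca8* (35.0 and 35.4%). The shares of *Bub1* rest on 29 P/D reads and 93 RS reads, and those of *Incenp* on 34 and 56.

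**Figure D2:**
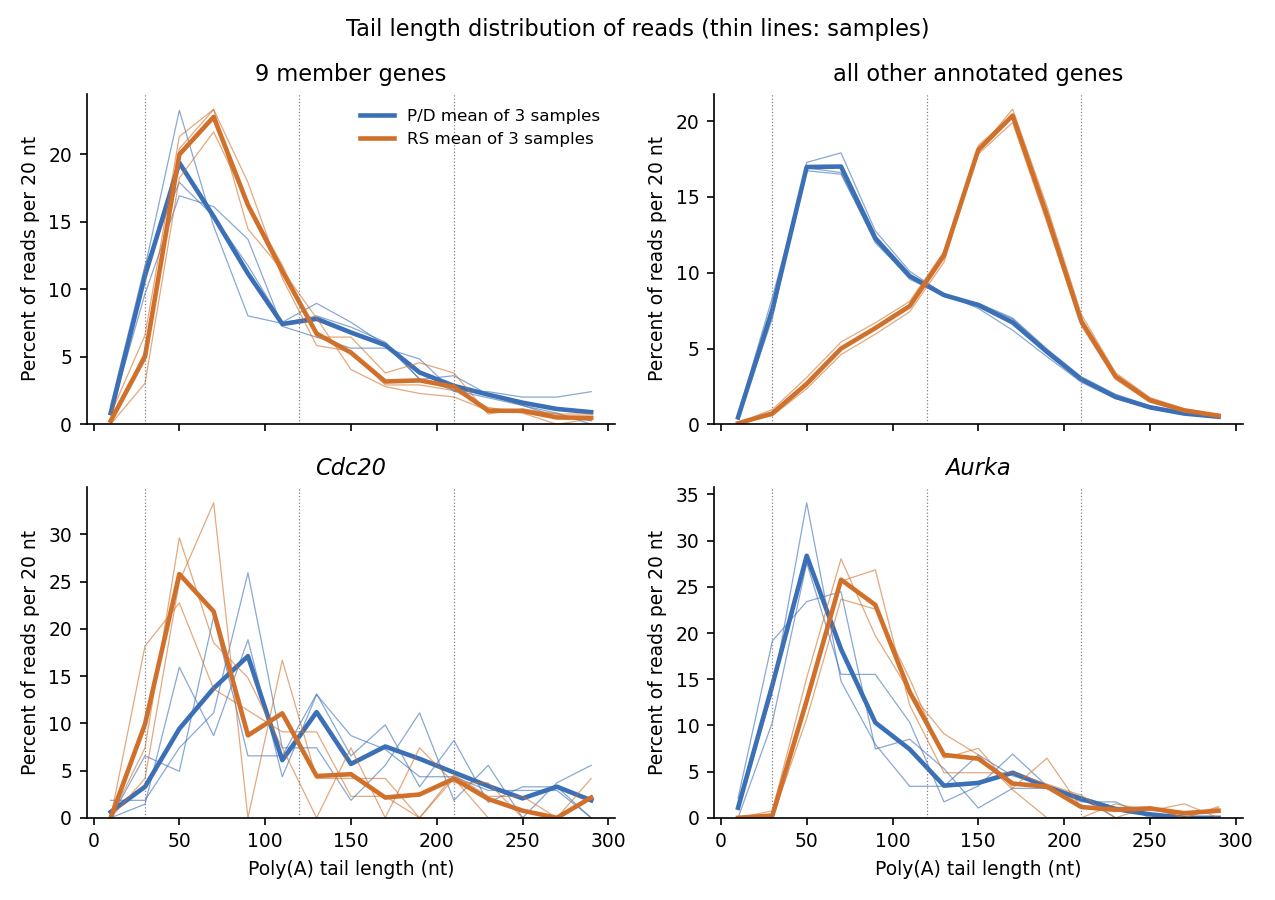
Distribution of tail lengths, as percent of reads per 20 nt against poly(A) tail length (nt), for the reads of the 9 genes, of all other annotated genes, of *Cdc20* and of *Aurka*, with samples as thin lines and means of 3 samples as thick lines (P/D blue, RS orange) and dotted lines at 30, 120 and 210 nt. In RS the reads of all other genes peaked between 120 and 210 nt, whereas those of the 9 genes peaked below 120 nt in both cell types, with 20.1% of RS reads in the longer class.

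Accumulation was compared on the read counts summed per gene, with edgeR over 4940 genes. In bulk samples, fewer cells of a type and less RNA per cell cannot be told apart. Of the 9 genes, 5 were called lower in RS, against 32.6% of all genes tested, and 1 higher, against 33.9%. Of these 6, *Cdca8*, *Bub1b* and *Aurkc* reached the count minimum in all 3 samples of P/D spermatocytes only, and *Bub1* in those of RS only, so that they passed the filter through the cell type in which they were high, and the counts called carry no support of their own. *Cdc20* and *Nek2* reached it in all samples. *Cdca8* had 151, 157 and 262 CPM (counts scaled to a common library size, per 1e+06 reads) in P/D samples and 26.5, 38.2 and 27.5 CPM in RS, 5.93-fold lower (log2 fold change -2.57 ± 0.27, edgeR adjusted p = 2.57e-12). *Bub1b* had 41.9, 36.0 and 53.9 CPM and then 13.3, 13.5 and 15.3 CPM, 3.06-fold lower (-1.61 ± 0.40, adjusted p = 0.000398). *Cdc20* had 226, 226 and 235 CPM in P/D samples and 89.6, 98.9 and 73.4 CPM in RS, 2.59-fold lower (-1.37 ± 0.20, adjusted p = 2.72e-08). *Cdc20* was thus called both shorter in tail and lower in level in RS, and no other of the 9 was called in both measures on the nt scale.

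*Aurkc* had 62.8, 88.4 and 112 CPM in P/D samples and 29.9, 33.7 and 42.8 CPM in RS, 2.47-fold lower (-1.31 ± 0.31, edgeR adjusted p = 0.000176). *Nek2* had 176, 154 and 165 CPM and then 103, 126 and 70.3 CPM, 1.61-fold lower (-0.69 ± 0.22, adjusted p = 0.00433), which was not called without RS replicate 3 (-0.46, adjusted p = 0.0775). *Bub1* was the gene called higher, with 29.3, 36.0 and 42.3 CPM in P/D samples and 63.0, 108 and 79.5 CPM in RS (2.37-fold, 1.24 ± 0.31, adjusted p = 0.000457). For the 6 genes called, the groups did not overlap, which adds no support to the calls, since both come from the same counts. The share of all genes tested with such a separation was not computed, either for counts or for the tails described above. The remaining 3 genes were not called. *Aurka* had 296 ± 48.8 CPM in P/D samples and 284 ± 12.3 in RS (SD, n = 3; log2 fold change -0.06 ± 0.16, adjusted p = 0.745), *Plk1* had 110 ± 15.98 and 141 ± 18.8 CPM (0.33 ± 0.22, adjusted p = 0.170), and *Incenp* 41.2 ± 21.6 and 52.6 ± 3.52 CPM (0.31 ± 0.34, adjusted p = 0.433). The paralogs *Aurka* and *Aurkc*, and the checkpoint genes *Bub1* and *Bub1b*, thus differed in what was called within each pair, and the difference within a pair was not tested. Among contigs, 5 of 10 were called lower, against 30.8%, and 1 higher, against 32.6%.

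**Figure D3:**
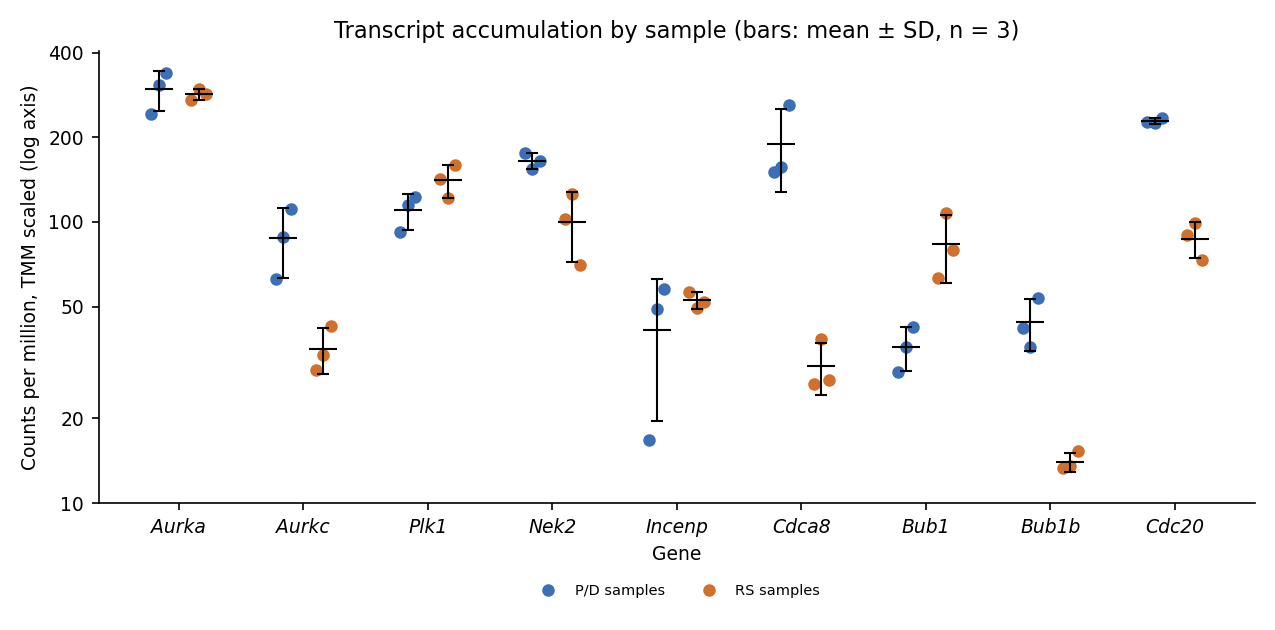
TMM-scaled CPM (log axis) of each gene in each P/D sample (blue) and RS sample (orange), with mean ± SD in black (n = 3). *Cdca8*, *Bub1b*, *Cdc20*, *Aurkc* and *Nek2* were called lower in RS and *Bub1* higher.

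Set side by side, the 5 genes lower in RS had tail differences from -41.3 nt (*Cdc20*) to 17.4 nt (*Nek2*), and *Bub1*, the gene higher in RS, had -18.0 nt. All 9 genes lay below the median tail difference of 35.7 nt of the 4881 genes tested for both measures, at percentiles of the tail difference among all genes tested from 1.08 (*Cdc20*) to 31.6 (*Nek2*).

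**Figure D4:**
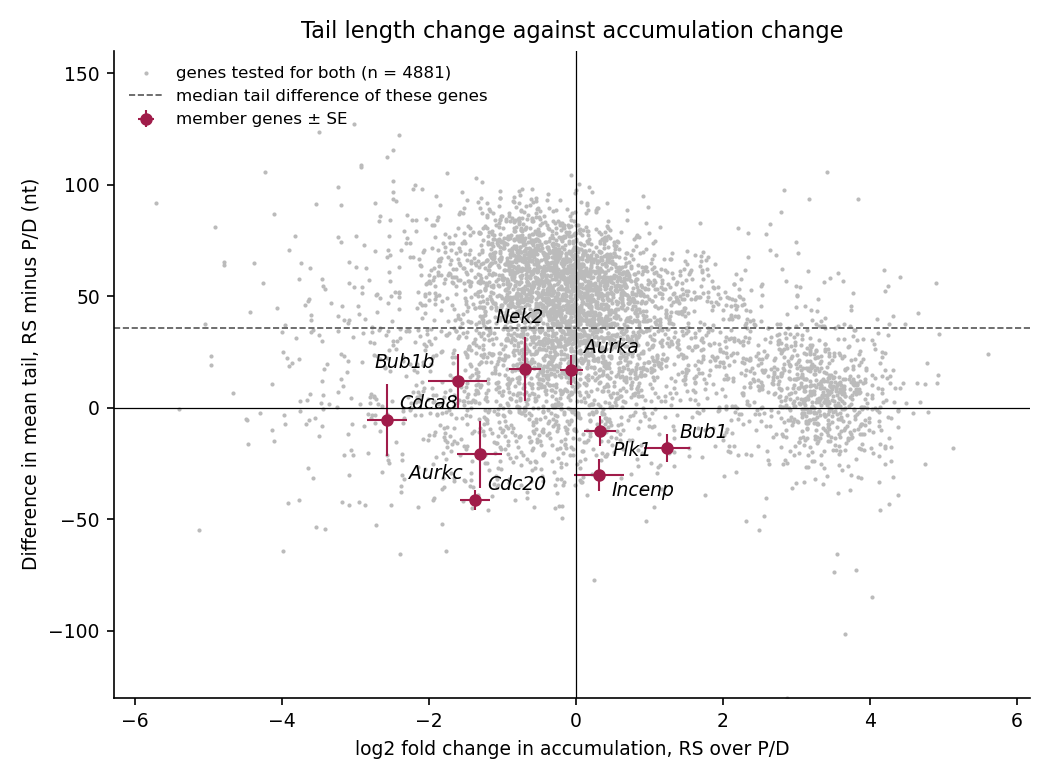
Difference in mean tail, RS minus P/D (nt), against log2 fold change in accumulation, RS over P/D, for 4881 genes (grey; 2 lie outside the vertical axis) and the 9 named genes with SE (red). All 9 sit below the dashed line at 35.7 nt, which is the median of the grey points.

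Partners of these genes were described in the same fits in 5 lists, 134 genes in all, of which 87 had contigs. Of 67 tested for tails, 26 were called longer in RS (38.8%, against 54.9% of all genes tested) and 4 shorter (5.97%, against 2.14%), with a median difference of 20.5 nt. On the relative scale, 6 of these 67 were called longer (8.955%, against 13.4% of all genes tested) and 19 shorter (28.4%, against 24.0%). Their median there was -23.4 nt, beside -8.62 nt over all genes tested, and the lists ranged from 7.69 to 42.9% shorter. In accumulation, 14 of 57 tested were called higher (24.6%, against 33.9% of all genes tested) and 25 lower (43.9%, against 32.6%). To be read against the same shares of all genes, the lists below ranged from 28.6 to 53.85% longer and from 0 to 11.1% shorter in tail, and from 11.8 to 40% higher and from 23.1 to 60% lower in level. Among checkpoint, passenger and cohesin-protection partners, 3 of 9 were longer and 1 shorter. *Haspin*, the histone kinase that recruits the passenger complex, had 116 ± 5.68 nt in P/D samples and 180 ± 3.05 nt in RS (difference 64.2 ± 5.36 nt, limma adjusted p = 0.000263) and rose 1.43-fold in level (edgeR adjusted p = 0.000216). *Birc5*, which encodes survivin, the third regulatory subunit of the passenger complex beside INCENP and borealin, had 90.3 ± 8.93 and 143 ± 4.07 nt (52.5 ± 6.39 nt, adjusted p = 0.000784), with a level that was not called (0.941-fold, adjusted p = 0.704). *Bub3*, the partner of BUB1 and BUBR1, was 3.25-fold lower in RS (edgeR adjusted p = 8.82e-08), with a tail of 112 ± 10 and 82.3 ± 18.1 nt (difference -29.4 ± 10.7 nt, adjusted p = 0.0561). *Rcc2* was 6.41-fold lower (edgeR adjusted p = 5.24e-09), with 23, 24 and 22 reads in P/D samples and 5, 4 and 5 in RS. In every list, partners named for level needed 20 reads in each sample of only 1 cell type. Those with few reads in the other were thus picked through the cell type in which they were high, and their calls carry no support of their own.

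Of the kinase activators and the Polo and NEK relatives, 7 of 13 had longer tails and 1 a shorter one. *Ppp1cc*, a catalytic subunit of protein phosphatase 1 with a germ cell isoform, went from 106 ± 6.66 to 169 ± 0.521 nt (63.2 ± 5.42 nt, adjusted p = 0.000279), and *Ppp2r5c* from 156 ± 8.46 to 194 ± 3.25 nt (37.3 ± 6.13 nt, adjusted p = 0.00269). *Cdc25a*, a phosphatase that activates cyclin-dependent kinases, was 4.79-fold higher in RS (edgeR adjusted p = 1.97e-08), with 5, 8 and 6 reads in P/D samples. *Ensa*, an inhibitor of protein phosphatase 2A, was 3.37-fold lower (edgeR adjusted p = 6.4e-08) and *Nek4* 1.81-fold lower (adjusted p = 0.00337). Of the kinetochore and centromere genes, 7 of 20 had longer tails and 1 a shorter one, and 2 of 17 were higher and 8 lower in level. *Cenpn* (70.1 ± 6.17 nt, adjusted p = 0.000292) and *Cenpu* (56.3 ± 6.83 nt, adjusted p = 0.00078) had the largest called increases in tail length at the read minimum for naming. *Nuf2*, of the complex that binds microtubules, was 2.07-fold lower in RS (edgeR adjusted p = 0.000134) with a tail difference of -6.46 nt (limma adjusted p = 0.663), *Cenpv* was 1.201-fold lower (adjusted p = 0.0181) and *Cenpw* 1.39-fold higher (adjusted p = 0.0165).

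Of the subunits and coactivators of the anaphase-promoting complex, 5 of 11 had longer tails and 1 a shorter one, and 4 of 10 were higher and 4 lower in level. *Fzr1*, the other main coactivator beside *Cdc20*, was 1.66-fold higher in RS (edgeR adjusted p = 0.000532) with a tail of 105 ± 17.4 nt in P/D samples and 146 ± 1.43 nt in RS (40.8 ± 9.33 nt, limma adjusted p = 0.0105). The coactivators were thus called in opposite directions in both measures. *Cdc27* rose 1.74-fold (adjusted p = 0.00255), while *Anapc11* was 1.93-fold lower (adjusted p = 2.69e-06) and *Ube2s* 1.52-fold lower (adjusted p = 8.96e-08). The largest called increases in tail length here were those of *Anapc13* (70.3 ± 5.98 nt, adjusted p = 0.000276) and *Anapc11* (49.5 ± 6.35 nt, adjusted p = 0.000963). Of the spindle kinesins and assembly factors, 4 of 14 had longer tails and 0 shorter ones by limma, at an unadjusted p below 0.05 too. *Ran* (45.2 ± 4.92 nt, adjusted p = 0.000524) and *Kif2a* (20.2 ± 5.72 nt, adjusted p = 0.0243) were among the longer. On the relative scale, 0 of the 14 were called longer and 6 shorter (42.9%, against 24.0% of all genes tested). *Kif2a* was among these shorter genes (-23.4 nt, limma adjusted p = 0.0169). *Cks2*, a subunit of cyclin-dependent kinases, was 30.1-fold lower in RS (edgeR adjusted p = 9.13e-29), from 783, 697 and 823 CPM to 13.3, 33.7 and 24.5 CPM. Its RS values rest on 4, 15 and 8 reads. *Prc1* was 3.05-fold lower (edgeR adjusted p = 7.01e-07). *Rcc1* was 2.10-fold higher (edgeR adjusted p = 0.00199), with 6, 17 and 10 reads in P/D samples. Its tail difference was -44.4 ± 18.6 nt (limma adjusted p = 0.0877). *Kpna2* was 1.92-fold higher (edgeR adjusted p = 2.04e-08), with a tail difference of 3.43 nt (limma adjusted p = 0.664).

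The 4 partners with shorter tails in RS are named here after their values were seen. *Bora*, the activator of Aurora A and PLK1, had 200, 155.2 and 195.7 nt in P/D samples, from 4 to 5 reads each, and 104.3, 77.1 and 103.8 nt in RS, from 8 to 24 reads (-88.5 ± 14.4 nt, limma adjusted p = 0.00258). *Espl1*, which encodes separase, the protease that opens cohesin once CDC20 has acted, had 136.8, 139.4 and 132.3 nt in P/D samples and 102.7, 98.7 and 123.5 nt in RS (-27.9 ± 7.84 nt, adjusted p = 0.0235). *Anapc10* (-26.3 ± 6.18 nt, adjusted p = 0.0118) and the kinetochore motor *Cenpe* (-20.0 ± 6.48 nt, adjusted p = 0.0391) were shorter while their level was higher in RS (log2 fold changes 0.85 and 1.34, edgeR adjusted p = 0.0184 and 0.000941). Their P/D means rest on 5, 17 and 11 reads of *Anapc10* and on 6, 10 and 4 reads of *Cenpe*. *Cenpe* and *Bora* reached the read minimum in RS only.

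**Figure D5:**
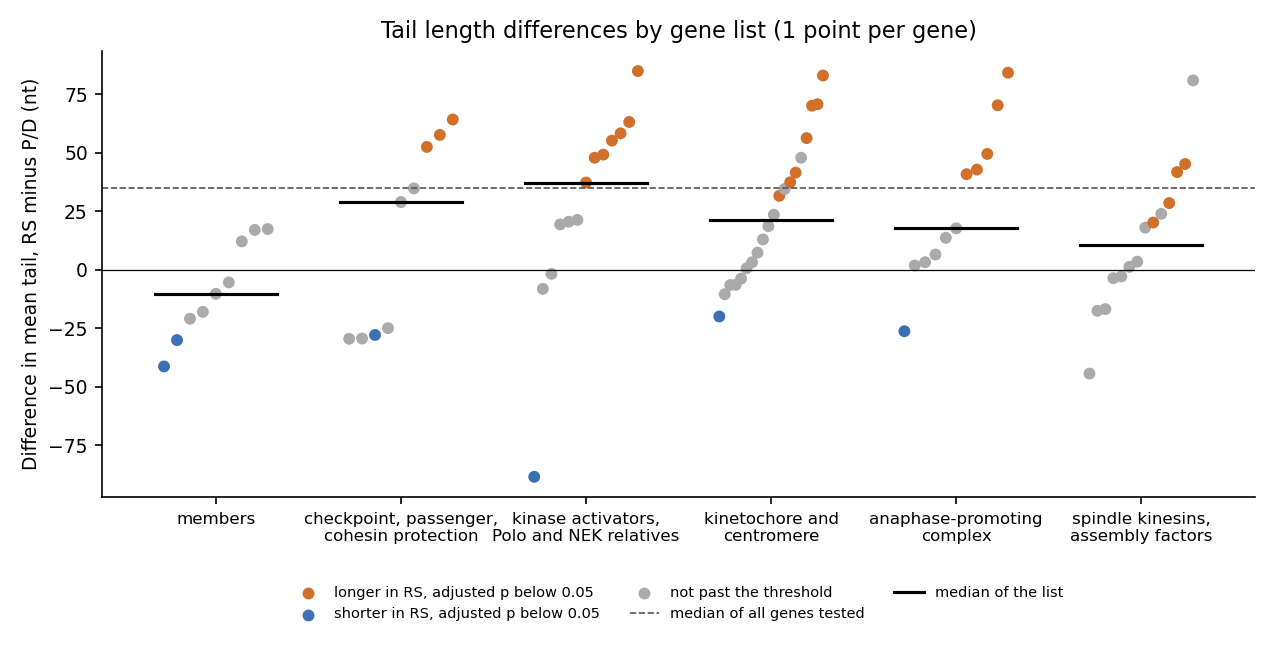
Difference in mean tail, RS minus P/D (nt), of each tested gene in the 9 members and in 5 lists of their partners, in order within a list, with the list's median as a black bar and the median of all genes tested as a dashed line at 35.0 nt. The members' median of -10.3 nt was the lowest, and orange and blue points mark genes called longer and shorter.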

How the data were processed

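P/D spermatocytes and RS were compared in tail length and accumulation, with 3 samples each. The authors basecalled, demultiplexed and aligned the reads to GENCODE transcripts of GRCm38 with minimap2 (version 2.20-r1061 in the submitters' processing notes) and estimated tails with Nanopolish. The deposited counts are raw numbers of reads per contig, and the deposited signal-derived tail lengths, whose other unit is nt, are given per read. The 2 tables held equal numbers of reads on all contigs in all samples, so that counts, too, cover reads with an accepted tail only.

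Mean tails per contig, or per gene with contigs joined by symbol, were tested with limma 3.58.1 in R 4.3.3, where 2 or more samples of 1 cell type had 10 reads or more and both cell types had 2 or more means. For counts, edgeR 4.0.16 was used (filterByExpr, TMM, quasi-likelihood), with DESeq2 1.42.0 as an alternative, and p-values were Benjamini-Hochberg adjusted (threshold 0.05). Standard errors of log2 fold changes were derived from the F statistic. The scripts were tested on simulated data. The p-values measure the spread between these pooled samples. Ends of transcripts came from GENCODE vM21, on the build of the authors' transcripts, and all 8 windows read were identical to the genome.

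Members were named with every contig of at least 10 reads. From each partner list came the 2 largest called rises and falls in level (at least 20 reads in every sample of 1 cell type) and in tail (of both). Members, lists and tests were chosen with earlier results of these data known. All germ cell types came from the same mice, but equal replicate numbers were not stated to mark the same pool. Correlations of same-numbered deviations from the group means were -0.0106, 0.0771 and 0.0157 for tails and 0.0261, 0.24 and 0.0706 for counts (1827 contigs). Between samples of unlike number they ran from -0.0816 to 0.0633 for tails and from -0.17 to 0.12 for counts. These values do not settle the pairing, and since none was stated the numbers were not taken as pairs. Alternatives were the replicate number as a block, other summaries, scales, read minimums, weights, tail ranges, normalizations and filters, and leaving out each sample. Chosen after seeing the data were the log2 scale on relative tails, the relative fit on genes with all its alternatives, and the alternatives for the partner lists.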

Additional observations from a re-analysis of the deposited data

How the results depend on the processing

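Depth sets the limits, since 4 of the 9 genes had under 20 reads in at least 1 sample of each cell type and the standard error of a sample mean over its own reads reached 47.3 nt (*Incenp*). For genes, the number called longer in RS went from 0 to 1 (*Aurka*) with median tails, with 10 reads in 2 samples of both cell types, with weights by reads and with tails of 10 to 300 nt, and the number called shorter from 2 to 1 with median tails and with weights. It went from 2 to 3, with *Bub1*, on the log2 scale (adjusted p = 0.0381), with 10 reads in 2 samples of both cell types (adjusted p = 0.0256) and with the methods' t-test unadjusted. Leaving out each sample in turn gave 0 longer and 2 to 3 shorter, 4 to 9 shorter on the relative scale, and 4 to 5 lower and 1 higher in accumulation. With at least 10 counts in every sample only 4 genes could be tested, of which 2 were lower and 1, *Plk1*, higher, and 5 contigs, of which 2 were lower. For contigs, the number longer went from 1 to 2 with median tails, weights, tails of 10 to 300 nt and the methods' t-test unadjusted, and to 0 with no read minimum and with the methods' t-test adjusted, while the number shorter was 1 with median tails and with weights. Leaving out each sample gave 0 to 1 contigs longer, 1 to 3 shorter, 4 to 7 shorter on the relative scale and 4 to 5 lower in accumulation. With the replicate number as a block (pairing not established), 0 contigs were longer, 1 was shorter and 4 were shorter on the relative scale, 6 genes were shorter on that scale (*Cdca8* was not called), and the difference in the percent of reads with tails of 120 to 210 nt stayed at -5.27 points, while the numbers of member genes called in tails on the nt scale and in accumulation were as without it. That difference was -4.22 to -6.80 points with each sample left out and -2.52 points for a class of 100 to 230 nt. Differences that were not called changed sign for *Cdca8* tails without P/D replicate 1 (5.44 nt) or RS replicate 2 (6.95 nt), in the gene and in its contig (range -19.56 to 6.95 nt over samples left out), for the main *Aurkc* contig without RS replicate 1 (1.76 nt, range -29.92 to 1.76), for *Aurka* accumulation with 10 counts in every sample (0.09, log2) or without P/D replicate 3 (0.04, range -0.15 to 0.04), and for 1 *Aurka* contig, ENSMUST00000028997, without P/D replicate 1 (-0.11, range -0.11 to 0.23). In the partner lists, the methods' t-test, adjusted, gave 2 shorter tails, the block gave 1 longer on the relative scale, and 10 counts in every sample gave 8 higher and 10 lower of 30 tested. Leaving out each sample there gave 20 to 25 longer and 1 to 4 shorter tails, 1 to 7 longer and 9 to 18 shorter on the relative scale, and 12 to 17 higher and 21 to 28 lower in accumulation. *Cdc20* was called in tail length, relative tail length and accumulation under every alternative. *Cdca8*, *Bub1b*, *Aurkc* and *Bub1* were called in accumulation under each alternative that tested them. With 10 counts in every sample none of these could be tested. Since they passed the filter through the cell type in which they were high, their repeated calls carry no support of their own.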
